A study of Mus musculus with 10 samples.

Results

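The genes described here are 9 signaling genes best known from blood cells: Ptprc, Lck, Blnk, Pstpip1, Vav1, Rac2, Plcg2, Pik3r5 and Inpp5d. They were taken by name from the 12160 genes listed for tuft cells and other epithelial cells of the inflamed mouse pancreas. They had been picked because they were higher in tuft cells in these same libraries, so their difference between the cell types is described and not tested.

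Pancreata came from 5 CD1 male mice, wild type per the sample records, in which caerulein, a peptide that overstimulates acinar cells, had induced pancreatitis; the strain field of the records reads Mixed, and no age was given. Cells negative for Cd45 and positive for EpCAM were sorted into Siglec F+ tuft cells and Siglec F-negative non-tuft epithelial cells, with 5 libraries of each, numbered 1 to 5. Each library was made from 100 sorted cells, and no uninjured pancreas was included. Levels are log2(RPKM + 1), where RPKM is a read density scaled to transcript length and library size, after quantile normalization, and a value of 0 means that no expression was listed. The lowest value of a library, its floor, was 0 in 9 libraries and 0.17 in non-tuft library 2. Sequencing depth is unknown.

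The sort was checked against marker genes. Of 14 tuft markers, 13 were listed and all 13 were higher in tuft libraries, among them Trpm5, a taste transduction channel, at 7.05 to 7.82 in tuft libraries and 0 to 4.32 in non-tuft libraries. Of 12 acinar markers, 10 were lower in tuft libraries, while Pnlip and Ctrb1 overlapped between the groups. Pnlip was 3.57 to 9.79 in tuft libraries and 8.01 to 12.04 in non-tuft libraries. Ctrb1 was 8.74 to 15.65 in tuft libraries and 15.21 to 15.65 in non-tuft libraries. Epcam was 9.19 to 10.87 in tuft libraries and 7.44 to 9.08 in non-tuft libraries. Between 1538 and 2764 genes lay at the floor in tuft libraries and between 1442 and 3753 in non-tuft libraries.

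In lymphocytes and myeloid cells, receptors that bind antigen or antibody are phosphorylated by Src family kinases, which the receptor phosphatase Cd45 keeps ready to act. Adaptor proteins then assemble enzymes at the membrane: phospholipase C gamma releases calcium through inositol trisphosphate, phosphoinositide 3-kinase makes a membrane lipid that recruits further proteins, and Vav exchange factors load Rac GTPases that reshape actin. Tuft cells are epithelial chemosensory cells with a stiff brush of actin-filled microvilli, and they also depend on phospholipase C and calcium, acting there downstream of taste-type receptors.

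Promoter sequences are shown for 3 of these genes because they hold the letters of sites bound by blood-cell factors, or by the family of Pou2f3, the POU-domain factor required for tuft cells. RefSeq promoters, which run from 250 bases before to 50 bases after a transcript start, were matched for 8 of the 9 genes, with 10 promoters in all. Rac2 had no entry. For Vav1 and Inpp5d the 250 bases before the start are given, and for Blnk 30 bases around an octamer, all 5′ to 3′ on the gene's strand and placed on NCBIM37 (mm9). Capitals mark the site GAGGAAGT of the myeloid and B cell factor PU.1, the E-box CACCTG or its reverse complement, and the reverse complement of the octamer ATGCAAAT.
Vav1, chr17:57418273-57418522, plus strand: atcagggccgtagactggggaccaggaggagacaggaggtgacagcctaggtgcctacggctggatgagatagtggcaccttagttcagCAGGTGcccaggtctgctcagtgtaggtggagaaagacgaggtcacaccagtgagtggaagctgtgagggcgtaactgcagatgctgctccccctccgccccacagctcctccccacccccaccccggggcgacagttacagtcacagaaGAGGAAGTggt
Inpp5d, chr1:89516637-89516886, plus strand: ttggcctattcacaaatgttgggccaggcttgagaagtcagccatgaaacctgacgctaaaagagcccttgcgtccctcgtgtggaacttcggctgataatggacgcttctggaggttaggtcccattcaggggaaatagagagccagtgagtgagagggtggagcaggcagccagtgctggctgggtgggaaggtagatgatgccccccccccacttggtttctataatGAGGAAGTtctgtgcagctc
Blnk, chr19:41068823-41068852, minus strand: tactggaagggATTTGCATgcccaataagg

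The PU.1 letters began 11 bases before the Vav1 start and 20 bases before the Inpp5d start. The Blnk octamer began 130 bases before the RefSeq start, but it lay inside the Blnk gene as annotated on NCBIM37, which runs from 41003417 to 41069025. The other motifs searched, on both strands, were the ETS core CCGGAAG, the repeat GGAAGGAA, the Gfi1 core AAATCAC, the Runx site TGTGGTT and the TATA box TATAAA. GAGGAAGT was in 2 of the 10 promoters and in 3.2% of 32851 mouse promoters of the same length. The octamer was in 1 of 10 and in 1.74% of all promoters. CACCTG was in 6 of 10, from 5 of the genes, and in 20.2% of all. TGTGGTT was in 1 of 10, a Lck promoter, and in 5.27% of all, and TATAAA in 1 of 10, a Ptprc promoter, and in 13.6% of all. CCGGAAG, GGAAGGAA and AAATCAC were in 0 of 10, against 8.86%, 3.79% and 3.2% of all promoters. The motifs had no letters in common positions here, and a match describes the letters only.

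Every tuft library was above every non-tuft library for each of the 9 genes. Of all 12160 listed genes, 767, or 6.31%, had no such overlap. Nothing is read from that contrast, since the genes were chosen on it. Without Lck, which no non-tuft library listed above its floor, the tuft minus non-tuft difference of mean log2 levels ran from 2.72 for Ptprc to 5.91 for Rac2, with a median of 4.06, against a median of 0.02 over all listed genes. Since the libraries are bulk, more cells that express a gene and more RNA per cell cannot be told apart.

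**Figure D1:**
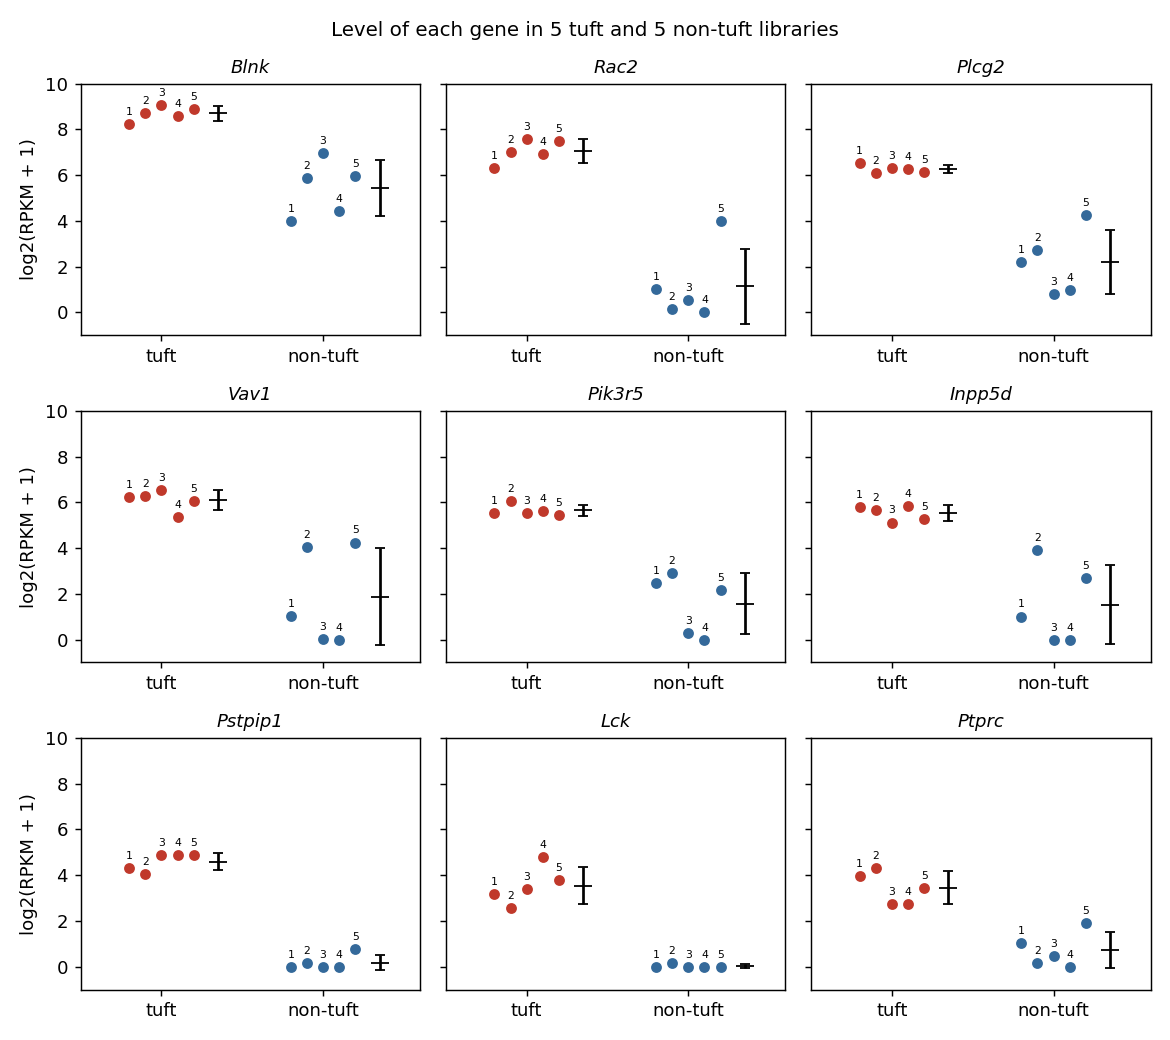
Level of each gene, as log2(RPKM + 1), in the 5 tuft and 5 non-tuft libraries, numbered by library, with the mean and SD of each group as a bar beside the points. All tuft points lie above all non-tuft points in each panel, and library 5 holds the highest non-tuft value of 5 genes.

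Ptprc encodes Cd45, the surface phosphatase that the sort gated out as a protein. Its RNA was 3.97, 4.33, 2.74, 2.74 and 3.45 in tuft libraries 1 to 5. Among non-tuft libraries 1 to 5 it was 1.04, 0.17, 0.48, 0 and 1.93, which for libraries 2 and 4 is the floor. The group means were 3.45 ± 0.72 and 0.72 ± 0.78 (SD, n = 5 each), a difference of 2.72, or 6.61-fold on the RPKM + 1 scale. Protein was not measured in these files, so RNA and the gate cannot be set against each other. The gene lies on chromosome 1, from 139959438 to 140071882 on the minus strand of NCBIM37.

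Lck, the T cell Src family kinase that Cd45 acts on, was 3.18, 2.59, 3.40, 4.78 and 3.80 in tuft libraries 1 to 5, with a mean of 3.55 ± 0.82 (SD, n = 5). All 5 non-tuft libraries had it at their floor, so no difference is given. Its tuft level was the most variable of the 9 genes by SD. The gene lies on chromosome 4, from 129225588 to 129250885 on the minus strand.

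Blnk, the adaptor that links the B cell receptor to phospholipase C gamma, was the highest of the 9 genes. It was 8.24, 8.72, 9.09, 8.57 and 8.87 in tuft libraries 1 to 5. Levels in non-tuft libraries 1 to 5 were 3.98, 5.89, 6.97, 4.44 and 5.95, so Blnk was above the floor in all 10 libraries. The means were 8.70 ± 0.32 and 5.45 ± 1.22 (SD, n = 5 each), a difference of 3.25, or 9.53-fold. Its level exceeded that of 98.97% of listed genes in the median tuft library and of 91.4% in the median non-tuft library. Blnk lies on chromosome 19, from 41003417 to 41069025 on the minus strand.

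Pstpip1, an adaptor that binds the Wiskott-Aldrich syndrome protein and tyrosine phosphatases of the PEST type at the actin skeleton, was 4.32, 4.05, 4.88, 4.86 and 4.89 in tuft libraries 1 to 5. Non-tuft libraries 1 to 4 had it at their floor and library 5 at 0.76. The means were 4.60 ± 0.39 and 0.19 ± 0.33 (SD, n = 5 each), a difference of 4.42, or 21.3-fold. Lck and Pstpip1 had the lowest non-tuft levels of the 9 genes. It lies on chromosome 9, from 55937769 to 55976695 on the plus strand.

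Vav1 and Rac2 are the blood-restricted exchange factor and one of the GTPases it loads. Vav1 was 6.23, 6.28, 6.53, 5.36 and 6.08 in tuft libraries 1 to 5. Its levels in non-tuft libraries 1 to 5 were 1.04, 4.04, 0.03, 0 and 4.24, the widest spread of the 9 genes, with libraries 2 and 5 well above the other 3. The means were 6.10 ± 0.44 and 1.87 ± 2.12 (SD, n = 5 each), a difference of 4.23, or 18.7-fold. Vav1 lies on chromosome 17, from 57418523 to 57468659 on the plus strand.

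Rac2 was 6.30, 7.0, 7.59, 6.92 and 7.50 in tuft libraries 1 to 5. Non-tuft libraries 1 to 5 had 1.04, 0.17, 0.56, 0 and 4.0, where libraries 2 and 4 are at their floor and library 5 stands above the others. The means were 7.06 ± 0.52 and 1.15 ± 1.64 (SD, n = 5 each), and the difference of 5.91, or 60.1-fold, ranked 19th of 12160 genes and was the largest of the 8 genes given a difference. Rac2 lies on chromosome 15, from 78389599 to 78403213 on the minus strand. It shared 12 of the 2987 stretches of 50 bases, the read length, of its longest coding transcript with other genes, none of them Rac1 or Rac3.

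Plcg2, the phospholipase C gamma of B and myeloid cells, had the most even tuft levels of the 9 genes, at 6.54, 6.08, 6.33, 6.25 and 6.14 in tuft libraries 1 to 5. The non-tuft libraries 1 to 5 had 2.20, 2.74, 0.82, 1.00 and 4.28, above the floor in each. The means were 6.27 ± 0.18 and 2.21 ± 1.41 (SD, n = 5 each), a difference of 4.06, or 16.7-fold. Plcg2 lies on chromosome 8, from 120022191 to 120159040 on the plus strand.

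Pik3r5 and Inpp5d act on the same membrane lipid in opposite directions. Pik3r5, a regulatory subunit of phosphoinositide 3-kinase gamma, was 5.54, 6.05, 5.55, 5.62 and 5.46 in tuft libraries 1 to 5. Its values were 2.47, 2.92, 0.30, 0 and 2.18 in non-tuft libraries 1 to 5, lowest in 3 and 4. The means were 5.64 ± 0.24 and 1.57 ± 1.33 (SD, n = 5 each), a difference of 4.07, or 16.8-fold. It lies on chromosome 11, from 68245623 to 68311351 on the plus strand, and shared 17 of its 4321 stretches of 50 bases with other genes.

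Inpp5d encodes the lipid phosphatase that removes a phosphate from the lipid phosphoinositide 3-kinase makes. It was 5.82, 5.66, 5.12, 5.84 and 5.25 in tuft libraries 1 to 5. For non-tuft libraries 1 to 5 the values were 1.01, 3.90, 0, 0 and 2.69, with library 2 the highest. The means were 5.54 ± 0.33 and 1.52 ± 1.72 (SD, n = 5 each), a difference of 4.02, or 16.2-fold. Inpp5d lies on chromosome 1, from 89516887 to 89617082 on the plus strand. The other 7 genes shared 0 stretches of 50 bases with other coding transcripts, and no exon of the 9 genes overlapped an exon of another annotated gene on either strand.

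RPKM is scaled to transcript length, so the genes can be ordered by level in tuft cells. The order of mean log2 levels was Blnk, Rac2, Plcg2, Vav1, Pik3r5, Inpp5d, Pstpip1, Lck and Ptprc. Blnk exceeded Rac2 by 1.64 ± 0.22 within the 5 tuft libraries, with no overlap, while Rac2 exceeded Plcg2 by 0.80 ± 0.64 and in 4 of 5. Plcg2, Vav1, Pik3r5 and Inpp5d formed a run whose neighbours differed by less than 1 SD of the paired difference, at 0.17 ± 0.45, 0.45 ± 0.48 and 0.11 ± 0.33. Genes further apart in the run could still differ. The lowest tuft value of Plcg2 was 6.08, above the highest of Pik3r5 at 6.05 and of Inpp5d at 5.84. Inpp5d exceeded Pstpip1 by 0.94 ± 0.63 and Pstpip1 exceeded Lck by 1.05 ± 0.57, each in 5 of 5 libraries. Lck and Ptprc could not be ordered, at 0.10 ± 1.45. In the median tuft library Rac2 stood above 96.1% of listed genes and Pstpip1 above 83.2%, but Ptprc above 63.5% and Lck above 62.7%.

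For 7 of the 9 genes the SD was lower among tuft than among non-tuft libraries, and Lck and Pstpip1, which were mostly at the floor in non-tuft libraries, were the exceptions. The SD of the 9 genes had a median of 0.39 in tuft libraries, from 0.18 to 0.82, and a median of 1.33 in non-tuft libraries, from 0.076 to 2.12. The median SD over all 12160 genes was 0.71 in tuft and 0.90 in non-tuft libraries. Over the 4948 genes with a tuft mean of 3 to 9 it was 0.58 and 0.76. Those genes were matched on the tuft mean and not on the non-tuft mean. Since the 9 genes were chosen on the contrast, no conclusion is drawn from their SD.

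The non-tuft libraries were also read one at a time, with each gene's linear level as a percent of its mean in the tuft libraries. The median over the 9 genes was 2.19%, 7.45%, 0.337%, 0% and 11.7% in non-tuft libraries 1 to 5. The median over 12 tuft markers was 0.784%, 4.84%, 0%, 0% and 9.69% in the same libraries. Both medians were highest in library 5, then in libraries 2 and 1, and that of the tuft markers was 0% in libraries 3 and 4. Of the 9 genes, 7 were at the floor in library 4, where all 12 tuft markers were. Whether tuft cells in the non-tuft sort account for these values was not tested.

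**Figure D2:**
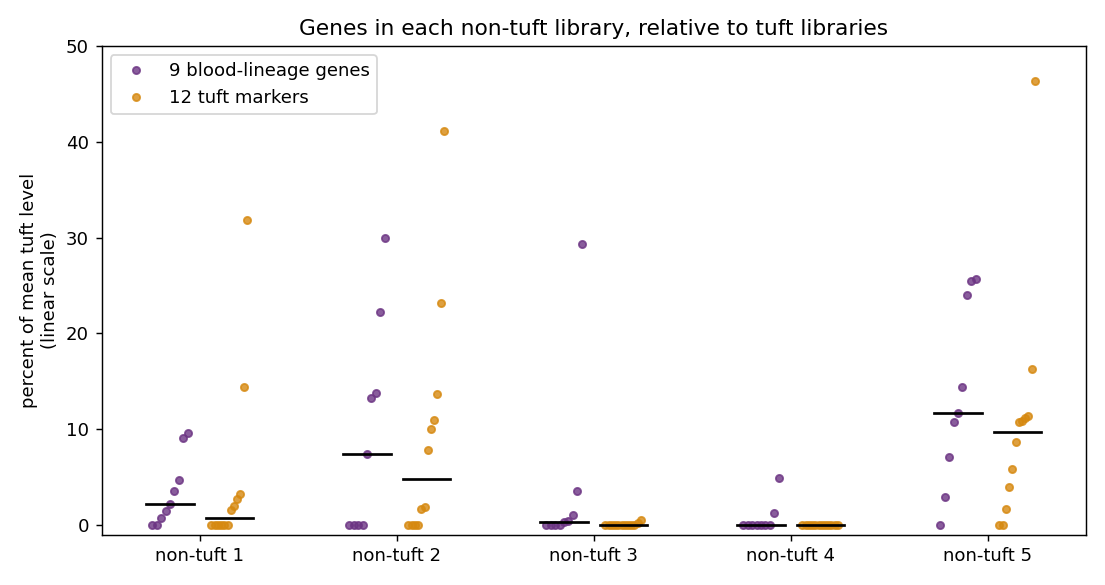
Level of each gene in each non-tuft library as a percent of its mean linear level in the 5 tuft libraries, for the 9 blood-lineage genes and 12 tuft markers, with the median of each set as a line. The medians of the 9 genes were 7.45% in library 2 and 11.7% in library 5, and Blnk reached 29.4% in library 3.

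Blnk took another order. It was at 3.50%, 13.8%, 29.4%, 4.91% and 14.4% of its tuft level in non-tuft libraries 1 to 5. In library 3, where it was highest, Trpm5 and Avil, an actin regulator of tuft cells, were at 0%. Lyn, a Src family kinase, was at 27.7% in library 3 and 22.4% in library 4. Vav1 reached 22.2% in library 2 and 25.7% in library 5, and Inpp5d 30.0% in library 2. The highest percents of Ptprc and Plcg2 were in library 5, at 25.4% and 24.0%.

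Each gene was next set beside its relatives, since a family can change as a whole or in 1 member. A relative was called higher or lower in tuft cells at a limma adjusted p under 0.05 and a fold over 4, a rule that 4.32% of all listed genes passed as higher and 3.99% as lower. Of the relatives, 8 were higher, 1 was lower and 5 were not listed. The relatives were chosen with earlier results of these data known, so these counts are descriptions.

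The Src family, to which Lck belongs, moved in both directions. Lyn, a member of B and myeloid cells, was higher by 2.98 (SE 0.63, limma adjusted p 0.00730), at 5.68 to 6.10 against 0.59 to 4.10. Fyn, the broadly expressed member, was 0, 0, 0.22, 0 and 0 in tuft libraries 1 to 5 and 2.96, 3.96, 1.21, 3.68 and 1.80 in non-tuft libraries 1 to 5, lower by 2.68 (SE 0.53, limma adjusted p 0.00477). Its fall was under 4-fold when libraries were centred on ribosomal protein genes, at -1.84 with a limma adjusted p of 0.0286. Differences for Fgr, Yes1, Src and Frk were 0.23, -1.47, 0.28 and -1.14, and none passed. Blk was not listed.

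The adaptors differed from their nearest relatives in different ways. Lcp2, which does for the T cell receptor what Blnk does for the B cell receptor, was at the floor in tuft libraries 1, 2 and 4. Among non-tuft libraries Lcp2 was 4.94 in library 5 and at the floor in the other 4. Its difference was -0.28 (limma adjusted p 0.886). Pstpip2 was higher by 4.30 (SE 0.78, limma adjusted p 0.00316), at 3.93 to 6.82 in tuft and 0 to 3.46 in non-tuft libraries. Clnk was not listed.

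Among the exchange factors and GTPases, Vav3 was higher by 3.03 (SE 0.60, limma adjusted p 0.00480), at 3.37 to 5.47 in tuft and 0 to 2.96 in non-tuft libraries, and Vav2 was not listed. Rac1, the ubiquitous Rac, was 7.28 to 8.13 in tuft and 5.14 to 7.57 in non-tuft libraries and differed by 0.72 (SE 0.50, limma adjusted p 0.415). Rac1 exceeded Rac2 within each of the 10 libraries, while their ranges overlapped among tuft libraries and not among non-tuft libraries. Rhog was higher by 2.18 (SE 0.48, limma adjusted p 0.00947), a rise that fell to 1.93 and 1.95, under 4-fold, without non-tuft library 1 or 4. Rac3 and Cdc42 differed by -0.20 and 0.21 and did not pass.

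For the lipid enzymes, Plcg1, the ubiquitous counterpart of Plcg2, was not listed, nor was Pik3r6, the other regulatory subunit of phosphoinositide 3-kinase gamma. Pik3r1, Pik3r2 and Pik3r4 differed by -0.56, 0.20 and 0.33 and did not pass. Pik3r3 differed by 1.85 (limma adjusted p 0.0247), under 4-fold. Of the inositol 5-phosphatases, Inpp5j was higher by 4.25 (SE 0.65, limma adjusted p 9.9e-04) and Inpp5b by 3.33 (SE 0.56, limma adjusted p 0.00203). Inppl1, the closest relative of Inpp5d, was 2.35 to 4.92 in tuft and 0 to 4.74 in non-tuft libraries and differed by 1.22 (SE 0.79, limma adjusted p 0.375). Inpp5a, Inpp5e, Inpp5f and Inpp5k ranged from -0.28 to 0.68 and did not pass.

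Of the receptor phosphatases beside Ptprc, Ptpre was higher by 2.17 (SE 0.55, limma adjusted p 0.0210), with overlap between the groups, and its call was lost in 8 alternatives, among them without non-tuft library 5 at a limma adjusted p of 0.0515. Ptpra, Ptprj and Ptprk differed by 1.25, 1.09 and -0.76 and did not pass.

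**Figure D3:**
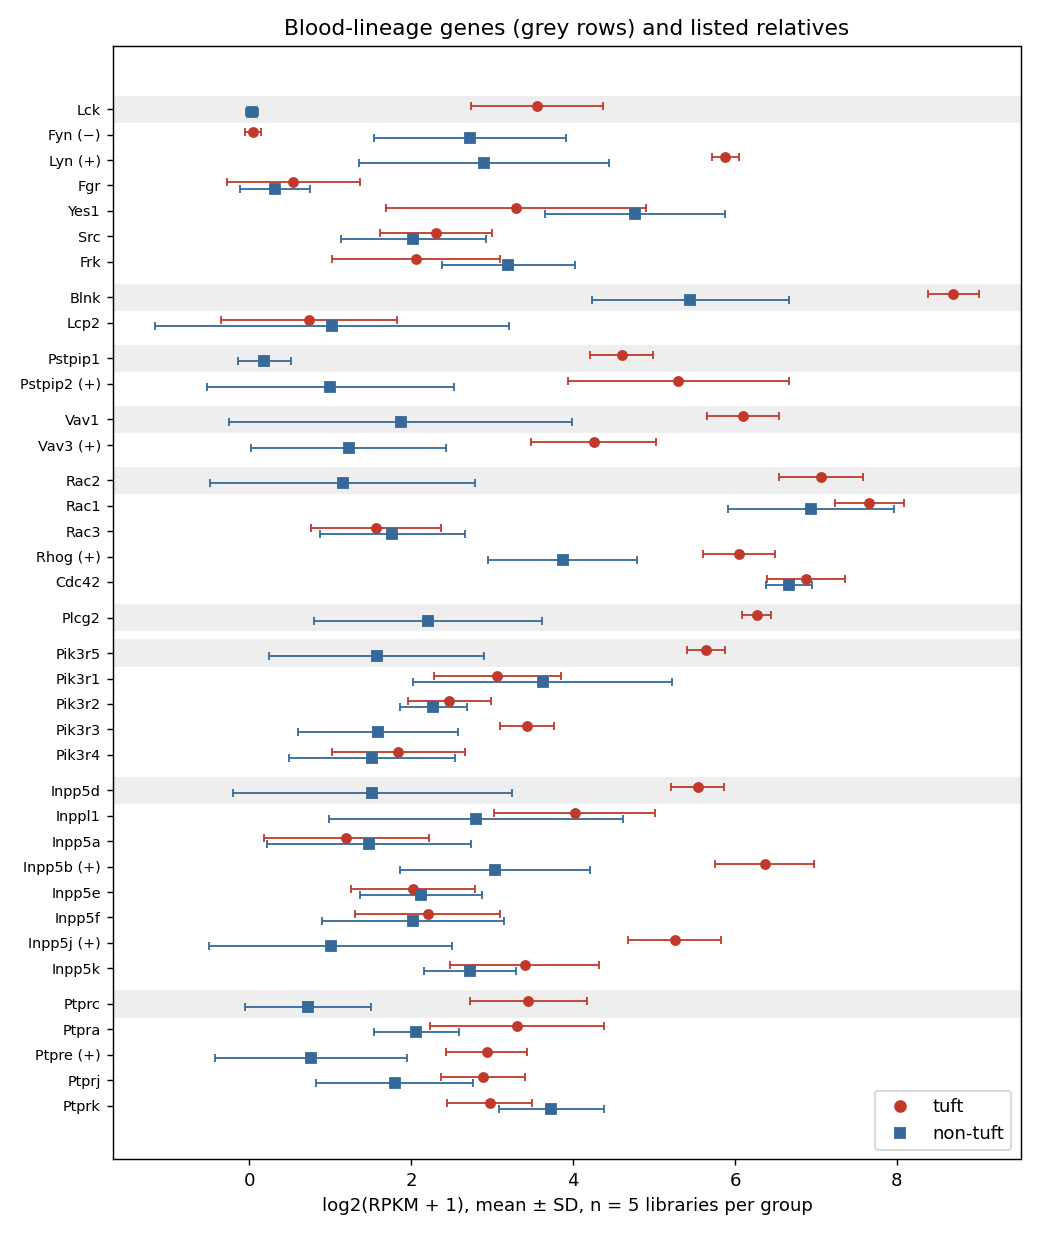
Mean and SD of log2(RPKM + 1) over 5 libraries per group for the 9 genes (grey rows) and the listed relatives reported here, where (+) marks a relative called higher and (−) one called lower in tuft cells. Rac1 overlaps between the groups while Rac2 does not, and Fyn lies lower in tuft libraries while Lyn lies higher.

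The wider signaling network was read from 7 lists of leukocyte signaling genes that leave the 9 genes out. Of 161 genes, 107 were listed, of which 18 were higher and 1, Fyn, was lower, against 4.32% and 3.99% of all listed genes, and the median difference was 0.28 against 0.02 over all genes. At an unadjusted limma p under 0.05, 31 were higher and 4 lower, where 25.1% of all listed genes passed in either direction. The lists overlap with the relatives given above. They were chosen with earlier results of these data known, so these counts are descriptions.

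Receptor-proximal kinases held 5 higher and 1 lower of 12 listed, with a median difference of 0.71. Bmx, a Tec family kinase, was 8.89 to 10.64 in tuft and 0 to 7.05 in non-tuft libraries, higher by 5.55 (SE 1.13, limma adjusted p 0.00574). Matk, a kinase that inhibits Src family members, was higher by 4.55 (SE 0.53, limma adjusted p 1.4e-04), and Csk, its ubiquitous counterpart, by 2.18 (SE 0.44, limma adjusted p 0.00601). The Csk rise was 1.90, under 4-fold, without non-tuft library 4. Syk and Btk, kinases that act on Plcg2 in B cells, were not listed, and Zap70, the T cell kinase downstream of Lck, was listed at 0 in the 5 tuft libraries but reached 3.98 in non-tuft library 5.

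Protein tyrosine phosphatases held 3 higher of 10 listed, with a median difference of 1.12. Ptpn6, a blood cell phosphatase that dampens receptor signals, was 6.71 to 7.99 in tuft and 0.0074 to 4.62 in non-tuft libraries, higher by 4.87 (SE 0.75, limma adjusted p 0.00106). Ptpn18 was higher by 3.35 (SE 0.57, limma adjusted p 0.00208). Ptprcap, a partner of Cd45 on lymphocytes, was at the floor in tuft libraries 1 to 3 and differed by -0.41.

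Adaptor proteins held 4 higher of 22 listed, with a median difference of 0.09. Besides Pstpip2 these were Skap2, higher by 3.75 (SE 0.56, limma adjusted p 9.0e-04), its partner Fyb, higher by 4.68 (SE 0.88, limma adjusted p 0.00376), and Dok3, higher by 2.55 (SE 0.58, limma adjusted p 0.0118) with overlap between the groups. Small GTPase regulators held 4 higher of 20 listed, with a median difference of 0.29. Besides Vav3 and Rhog these were Arhgap4, higher by 2.22 (SE 0.47, limma adjusted p 0.00700), and Dock11, higher by 2.63 (SE 0.76, limma adjusted p 0.0385), both with overlap.

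Actin regulators held 1 higher of 11 listed, with a median difference of 0.34. This was Lcp1, an actin-bundling protein of leukocytes, higher by 2.58 (SE 0.75, limma adjusted p 0.0403). The calls of Lcp1 and Dock11 were each lost in 11 alternatives, among them without non-tuft library 5, at limma adjusted p values of 0.0650 and 0.0809 and differences of 2.69 and 2.56. Calcium, protein kinase C and transcription genes held 1 higher of 20 listed, with a median difference of -0.06, and this was Itpr2, an inositol trisphosphate receptor, higher by 2.63 (SE 0.38, limma adjusted p 6.6e-04). Phosphoinositide 3-kinase and phospholipase C genes held 0 called of 12 listed, with a median difference of 0.12, and 4 higher and 0 lower at an unadjusted limma p under 0.05. Pik3cg, the catalytic partner of Pik3r5, was 3.53, 1.25, 3.56, 5.60 and 5.20 in tuft libraries 1 to 5 and 2.39, 1.91, 0, 0 and 2.74 in non-tuft libraries 1 to 5, and its difference of 2.42 (SE 0.82) had a limma adjusted p of 0.0784.

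**Figure D4:**
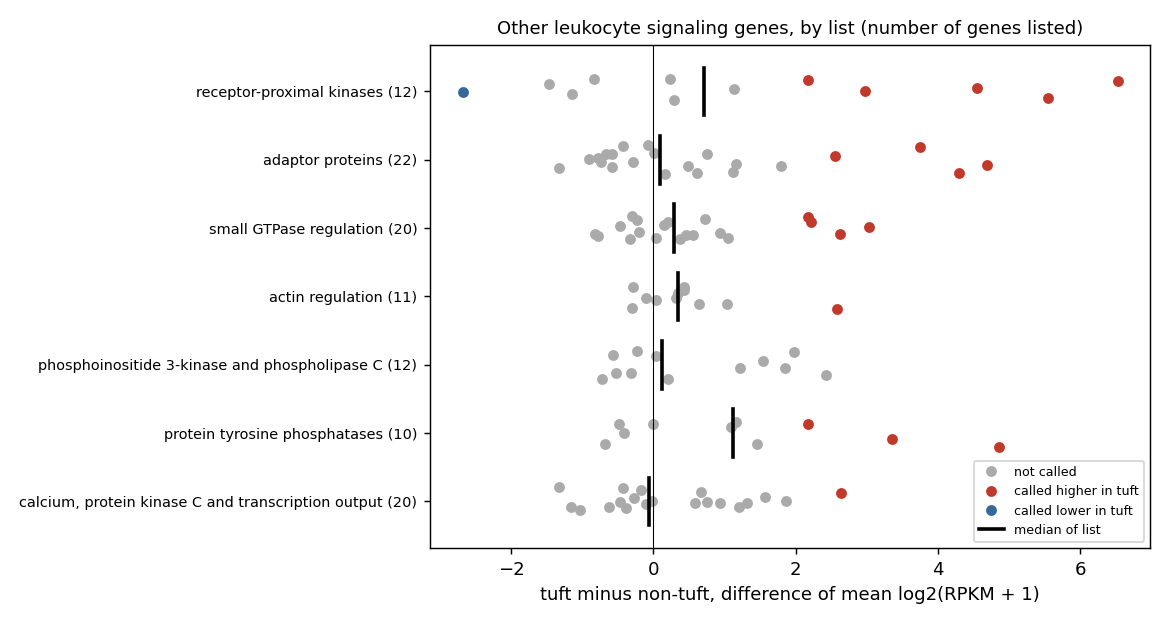
Difference of mean log2(RPKM + 1), tuft minus non-tuft, for each listed gene of 7 leukocyte signaling lists, with called genes in color and the list median as a bar. Receptor-proximal kinases hold 5 genes called higher and 1 called lower, and phosphoinositide 3-kinase and phospholipase C genes hold 0.

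The markers of blood cell types were read beside the 9 genes, since leukocytes are the usual source of their RNA. Of 67 markers of T cells, B cells, myeloid cells, granulocytes and NK cells, 16 were listed, including 3 of 12 for T cells, 4 of 8 for B cells, 8 of 20 for monocytes, macrophages and dendritic cells, 0 of 19 for granulocytes and mast cells, and 1 of 8 for NK cells. Their summed linear level was 128.4, 1.4, 153.7, 130.8 and 105.2 in tuft libraries 1 to 5 and 58.9, 7.9, 59.3, 147.4 and 207.2 in non-tuft libraries 1 to 5. The groups overlapped in this sum. Without the NK cell marker Klrb1c and the monocyte marker Cd14, 14 markers were left. They summed to 43.14, 0, 66.11, 26.98 and 45.81 in tuft libraries 1 to 5. In non-tuft libraries 1 to 5 they summed to 31.01, 2.30, 5.15, 13.49 and 152.83. Tuft libraries 1, 3 and 5 then lay above non-tuft libraries 1 to 4. Non-tuft library 5 was the highest and tuft library 2 the lowest, so the groups still overlapped. The sum of the 9 genes was 688.5, 846.2, 1028.9, 777.6 and 914.8 in tuft libraries 1 to 5 and 27.1, 100.0, 125.9, 21.7 and 124.4 in non-tuft libraries 1 to 5.

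Of the 16 blood cell markers, 5, 1, 10, 6 and 12 were above the floor in tuft libraries 1 to 5. In non-tuft libraries 1 to 5 they numbered 4, 2, 6, 2 and 9. The 1 marker in tuft library 2 was Cd14, a monocyte co-receptor, at 1.24. All 9 genes were listed there at levels of 2.59 to 8.72. Of 9 listed pan-leukocyte genes other than Ptprc, 4 were above the floor there. They were Cd44 at 4.08, Gmfg at 2.98, Itgal at 1.91 and Cd37 at 1.62. That library had 2764 genes at the floor, the most of the tuft libraries. Cd14 was 1.24 to 6.06 in tuft and 2.72 to 7.08 in non-tuft libraries. Of the 16 markers 1 was called higher in tuft cells, Klrb1c, an NK cell receptor that was chosen for mention after its values were seen. It was 6.28, 0, 6.22, 5.29 and 5.80 in tuft libraries 1 to 5 while no non-tuft library listed it above its floor (limma adjusted p 0.00723), and without both libraries numbered 5 its limma adjusted p was 0.0663, with a fitted difference of 4.41 in place of 4.68 whose non-tuft side is the floor.

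Non-tuft library 5, which held the highest levels of Vav1, Rac2, Plcg2, Pstpip1 and Ptprc among non-tuft libraries, also held B and T cell receptor genes. Cd79b and Cd79a, the signaling chains of the B cell receptor, were 6.22 and 5.23 there and at the floor in the other 4 non-tuft libraries. Cd3g, a chain of the T cell receptor complex, was 3.72 there and at the floor in those 4. In tuft libraries 1 to 5 Cd79b was 4.38, 0, 3.15, 3.95 and 3.85, and Cd79a was 2.35, 0, 0, 3.38 and 3.56. Cd2, a T cell marker, was 4.34, 0, 2.95, 0 and 2.83 in tuft libraries 1 to 5. It was 3.02 in non-tuft library 5 and at the floor in the other 4 non-tuft libraries. Cd3g was at the floor in tuft libraries 1 to 4 and 1.92 in tuft library 5. The part of such cells in the levels of the 9 genes was not tested. Without both libraries numbered 5, the differences of the 8 genes other than Lck ran from 3.02 for Ptprc to 6.51 for Rac2, with a median of 4.43.

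The summed level of fibroblast and endothelial markers was highest in library 5 of each group. Among non-tuft libraries Pecam1, an endothelial marker of this list, was highest in library 1, at 4.47 against 3.31 in library 5. Of 12 fibroblast and endothelial markers 8 were listed, with a summed linear level of 0 in tuft libraries 1 to 4 and 253.8 in tuft library 5, and of 23.1, 0, 0.4, 6.3 and 754.3 in non-tuft libraries 1 to 5. Of 16 pan-leukocyte genes other than Ptprc 9 were listed, with sums of 27.6 to 83.1 in tuft and 11.2 to 96.7 in non-tuft libraries. Gmfg, an actin regulator of leukocytes, and Cd44, a hyaluronan receptor, differed by 0.39 and 0.13 and did not pass. Of 10 erythroid and platelet markers 1, Pf4, was listed.

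**Figure D5:**
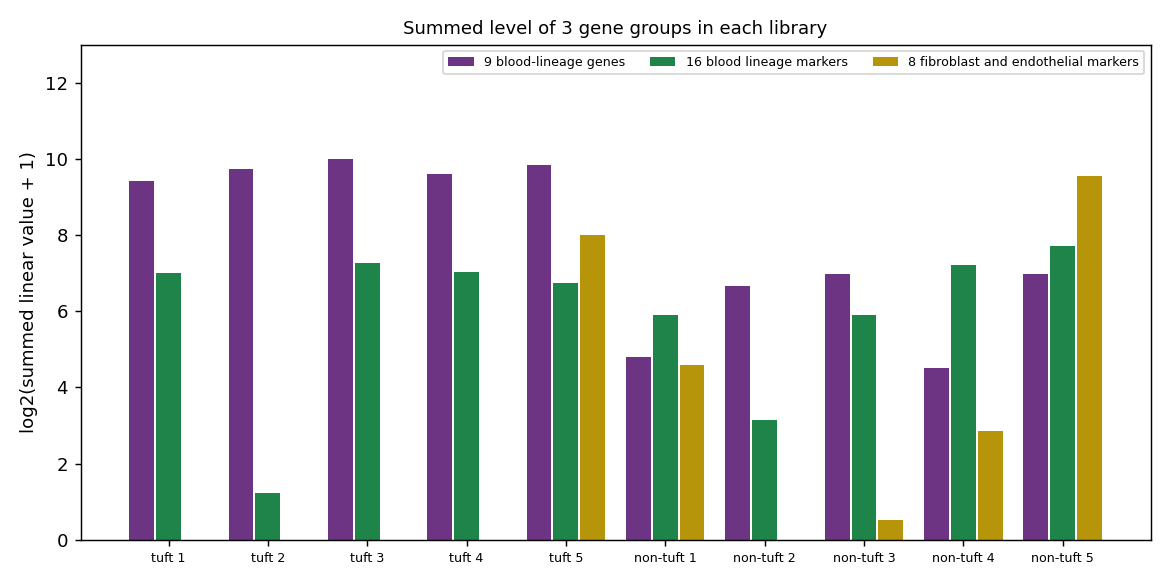
Summed linear level in each library, shown as log2(sum + 1), of the 9 blood-lineage genes, 16 listed blood cell markers and 8 listed fibroblast and endothelial markers. The 9 genes sum to 846.2 in tuft library 2, where the blood cell markers sum to 1.4. Pan-leukocyte genes, which are not drawn, sum to 27.6 in tuft library 2. In the other tuft libraries the blood cell markers sum to 105.2 to 153.7. The sum of the fibroblast and endothelial markers is highest in the 2 libraries numbered 5.

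Outside the 9 genes, the gene whose levels were closest to each of them over all 10 libraries was found by the root mean square difference of log2 levels. This distance takes in the contrast on which the 9 genes were chosen, and for Lck and Pstpip1 mostly floor values on the non-tuft side. It describes likeness of level, and joint variation between libraries was not tested. Vav1 was closest to Pcolce2 at 0.54, Rac2 to Ccdc109b at 0.36, Pik3r5 to Matk at 0.46 and Plcg2 to Ptgs1 at 0.71. Blnk was closest to Ckmt1 at 0.59, Pstpip1 to Clec4a1 at 0.33, Ptprc to A3galt2 at 0.51, Lck to 4930511A08Rik at 0.33 and Inpp5d to Matk at 0.67. Matk was thus the nearest gene outside the 9 to both Pik3r5 and Inpp5d. Among the 9 genes, Pik3r5 and Inpp5d were 0.63 apart, nearer than Inpp5d was to Matk, and Vav1 and Plcg2 were 0.75 apart, while the gene of the 9 nearest to Blnk, Plcg2, was 3.10 from it.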

How the data were processed

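RNA of 10 libraries was sequenced by the authors with the Smart-Seq2 protocol as 50-base single-end reads and mapped to mm9 with HISAT2. StringTie and Ballgown then gave RPKM values, genes with little variance were removed, and the deposited values are log2(RPKM + 1) after quantile normalization. The authors' own fold ratios, p-values and false discovery rates are also in the table and were not used. No counts were used, so depth is unknown and no counting interval is given.

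Groups came from the sample records. The deposited log2 values were fitted with limma 3.58.1 in R 4.3.3 over all 10 libraries, with Benjamini-Hochberg adjustment over 12160 genes, and a call needed an adjusted p under 0.05 and a fold over 4. The fit was tested on simulated data. The 9 genes, their relatives and the lists were chosen with earlier results of these data known, so the 9 genes carry no p-value. Named genes are the 9, their relatives, called genes of the signaling lists (up to 4 per list and direction), markers above the floor in all 5 libraries of a group and the nearest gene to each of the 9. A called relative and some list members counted here are not reported by name. Others are named as group checks or to describe a list or a library, and were chosen after their values were seen. Linear levels are 2 to the log2 value, minus 1, with values at the floor set to 0. Gene positions are from the GENCODE annotation of NCBIM37, and promoters from RefSeq, with a table on GRCm38.p6 whose sequences were matched exactly to NCBIM37. Python 3.11.15 with numpy 2.4.6, pandas 2.3.3 and matplotlib 3.10.9 was used for tables and plots.

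The alternatives were a block on the replicate number, a constant of 0.1 or 10 instead of 1, genes with a mean log2 level of 2 or more, a centre set by 69 ribosomal protein genes, trend and robust settings, a common floor of 0, no fold threshold, and each library left out. Leaving out both libraries numbered 5 was added after the data were seen. Tuft libraries came from individual mice, and p-values measure the spread between libraries.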

Additional observations from a re-analysis of the deposited data

Results flagged for a closer look

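Of 17 groups of 5 libraries tested for a single value far from the others, 3 stood apart, where chance gives about 1 in 20. Rac2 was 4.0 in non-tuft library 5, a gap of 0.74 of the range of the group. Pstpip1 was 0.760 in the same library, above 4 libraries at the floor, and with 4 values at the floor any other value stands apart by construction. Pik3r5 was 6.05 in tuft library 2, a gap of 0.72 of the range.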

How the results depend on the processing

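No alternative reversed the direction of a called gene or of the 9 genes. Adding 10 in place of 1 gave 162 genes higher and 116 lower of all listed, in place of 525 and 485. It also gave 8 higher and 0 lower in the signaling lists, in place of 18 and 1, and 4 higher and 0 lower among the relatives, in place of 8 and 1. The median difference of the 9 genes, in which Lck enters against the floor, was 4.06, and it was 2.21 with 10 added and 5.55 with 0.1 added. Without Lck these medians were 4.06, 2.29 and 5.39. Centring on ribosomal protein genes moved the median difference of all genes to 0.85 and gave 1357 higher and 217 lower of all genes, 28 higher and 0 lower in the signaling lists and 0 lower among the relatives. With a mean log2 level of at least 2, Fyn was no longer tested, which left 0 lower in the signaling lists and 0 lower among the relatives.

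Leaving out 1 library at a time gave 447 to 533 genes higher and 394 to 477 lower, 14 to 17 higher in the signaling lists, 7 to 8 higher among the relatives, 1 to 2 blood cell markers higher, and a median of 3.68 to 4.41 over the 9 genes. Without non-tuft library 5 the blood cell markers called higher were 2, and without both libraries numbered 5 they were 0. The replicate number as a block gave 518 higher and 491 lower, and left the counts in the signaling lists and among the relatives at 18 and 1 and at 8 and 1. Deviations from the group means of same-numbered libraries correlated at 0.0619 to 0.240 over 5 pairs, other pairs at -0.174 to 0.139, and 3 of 5 tuft and 4 of 5 non-tuft libraries correlated best with their own number. This is a hint from the data, and the numbers were not taken as pairs.

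Pik3r3 was called under ribosomal centring and without non-tuft library 1, and Ptpra under ribosomal centring. With 10 added, the calls of Arhgap4, Csk, Dock11, Dok3, Fyn, Itpr2, Lcp1, Lyn, Ptpre, Rhog and Vav3 were lost, all at folds under 4. With unknown depth and 100 cells per library, a gene at the floor is not shown to be absent.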
